A study of Homo sapiens with 8 samples.

Results

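The S100 calcium-binding protein genes described here are S100A2, S100A3, S100A4, S100A6, S100A10, S100A11, S100A13, S100A14, S100A16 and S100P. They were picked by symbol and are 10 of the 19411 genes in the deposited table. The choice used measured values, since S100A14 had the deepest fall among S100 genes in circPRE8 against the control guide, so that contrast is described without a test. S100A14 is given a test only in circPRE2 against parental sgNORAD, whose means share no library with the contrast that chose it. The spread in that test was estimated over all 8 libraries, among them those of that contrast. Counts of called genes below cover the other 9. Of the 10 genes, 9 reached 0.5 RPKM (reads per kilobase of exon, scaled to library size) in all 8 libraries and were tested, while S100P did not reach it in any.

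All libraries were poly(A) RNA from HCT116, a human colorectal carcinoma cell line, and all carried CRISPR interference, which blocks transcription at a promoter with an inactive Cas9 led by a guide RNA. The libraries form 4 groups of 2. In the parental line, cells received a control guide (parental sgControl) or a guide against NORAD (parental sgNORAD), a long noncoding RNA that binds PUMILIO proteins. The lines named circPRE2 and circPRE8 both received the NORAD guide. What circPRE2 and circPRE8 carry, and whether each is a single clone, is not stated in the labels. NORAD itself was not analysed here, and its knockdown therefore went unchecked. Nothing in the sample labels says that the libraries came from separate cultures, so the p-values measure the spread between these libraries, which may be technical.

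S100 proteins are small proteins with a pair of EF-hand calcium-binding loops. Most work as dimers that open a binding surface when calcium rises and then attach to other proteins, among them annexins, cytoskeletal proteins and, outside the cell, receptors such as AGER. S100A10 is the exception that does not need calcium: it is held by annexin A2 (ANXA2) under the plasma membrane. In epithelial tumours S100A4 is best known for its link to motile cells, and S100A14 is mainly made in epithelia.

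Library sizes used in the deposited scaling came to between 28390000 and 50280000 reads, the smallest being parental sgNORAD replicate 1. The root mean square log2 difference between the 2 libraries of a group ran from 0.11 to 0.149 over 11585 genes tested. Of 10 markers of colorectal epithelium, 8 passed the filter, and KRT8, KRT18, KRT19 and EPCAM were at 73.2 RPKM or more in every library, while CEACAM5 was listed at 0 in all 8 and VIL1 did not exceed 0.0144 RPKM.

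Levels spread widely over the S100 genes. S100A6, which binds calcyclin-binding protein, was the highest in every library, between 502 and 586 RPKM, which is 39.8% to 49.4% of the summed level of the 10 genes and rank 24 to 27 among all genes. S100A4, S100A10 and S100A11 stood between 133 and 328 RPKM, S100A16 and S100A14 between 13.5 and 93.6 RPKM, S100A13 between 7.23 and 8.94 RPKM, and S100A2 and S100A3 between 2.74 and 6.13 RPKM. S100P, a gene of several carcinomas, had a level of 0 to 0.333 RPKM. The 10 genes together made up 0.501% to 0.622% of the summed RPKM, with the highest sums, 1433 and 1450 RPKM, in the circPRE8 libraries and the lowest, 1160 and 1145 RPKM, in parental sgNORAD.

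**Figure D1:**
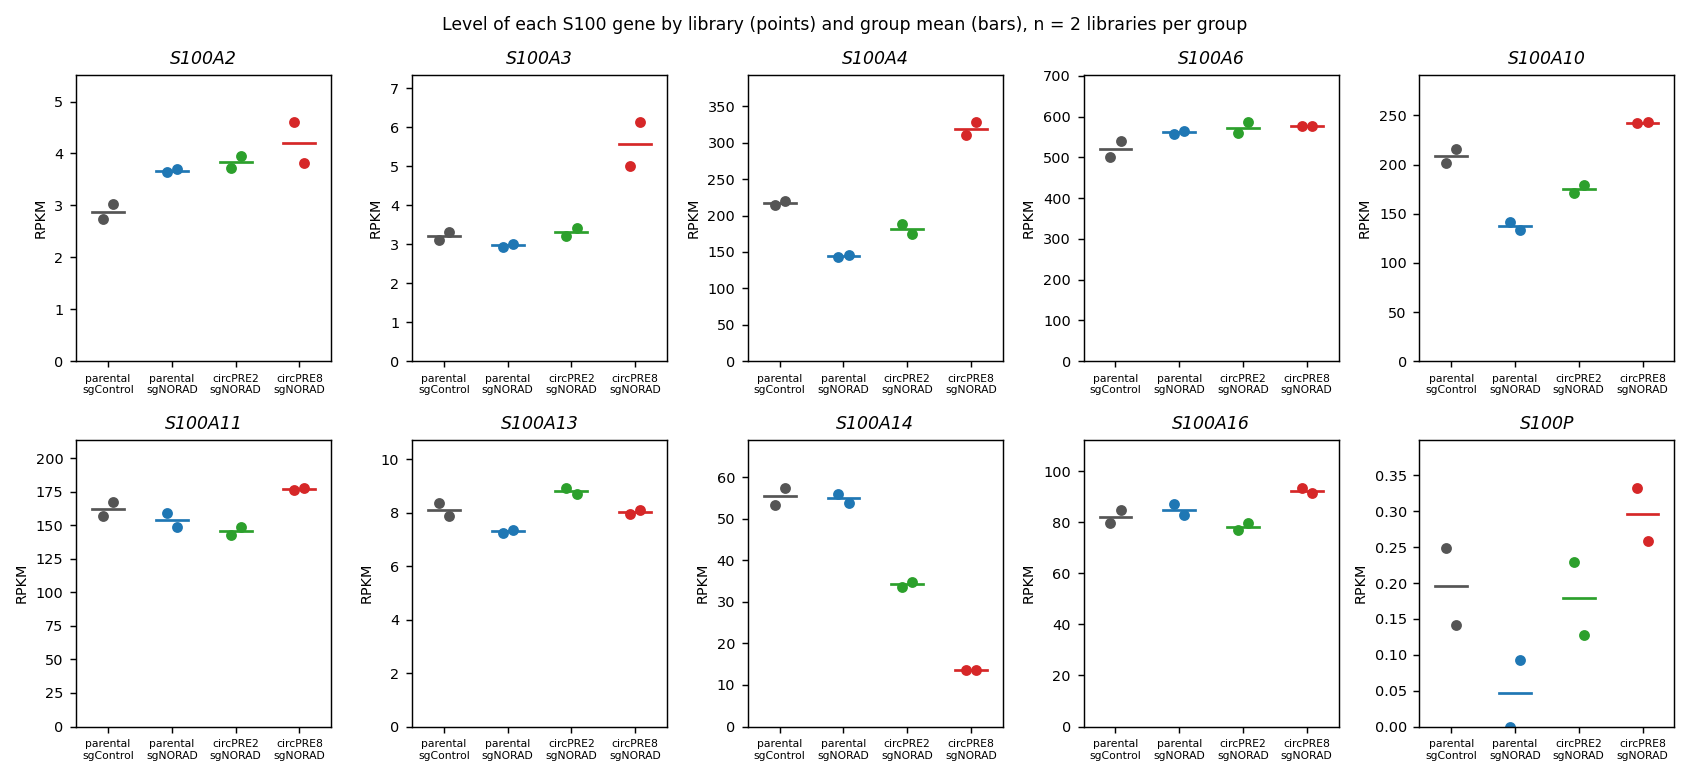
Level in RPKM (vertical axis, from 0) of each of the 10 S100 genes in the 4 groups (horizontal axis), with 1 point per library and a bar at the group mean (n = 2). S100A14 stands at 13.7 and 13.5 RPKM in circPRE8 and at 53.3 or more in the parental groups, whereas S100A4 and S100A10 are lowest in parental sgNORAD and highest in circPRE8.

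S100A14 (ENSG00000189334.9, hg38 chr1:153614255-153616986, minus strand) was at 53.3 and 57.5 RPKM in parental sgControl, 55.9 and 53.9 in parental sgNORAD, 33.6 and 34.8 in circPRE2, and 13.7 and 13.5 in circPRE8. The parental groups overlapped, every circPRE2 library lay below all parental libraries, and both circPRE8 libraries lay below those of circPRE2. These values rest on 781 to 3296 reads per library. In circPRE8 against parental sgControl, the contrast that chose the gene, its level was 4.04-fold lower (13.6 ± 0.111 against 55.4 ± 2.98 RPKM, SD, n = 2, no test).

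In circPRE2 against parental sgNORAD, which shares no library with that contrast, the mean of S100A14 was 34.2 ± 0.886 RPKM against 54.9 ± 1.4 (SD, n = 2), a fall to 0.623. The log2 change was -0.68 (95% interval -0.78 to -0.59, limma with Benjamini-Hochberg adjusted p = 3.14e-06), and over all alternatives tried it ran from -0.71 to -0.66 with adjusted p between 1.96e-06 and 0.00126. Without a test, the log2 difference of S100A14 was -0.01 for parental sgNORAD against parental sgControl, -0.69 for circPRE2 against parental sgControl, -2 for circPRE8 against parental sgNORAD and -1.32 for circPRE8 against circPRE2.

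S100A14 lies among other S100 genes on chromosome 1. The nearest, S100A16 and S100A13, on the same strand, begin or end 1109 and 1800 bases away. S100A16, whose protein is a close relative of S100A14, was at 79.6 and 84.7 RPKM in parental sgControl, 87.3 and 82.7 in parental sgNORAD, 77.1 and 79.6 in circPRE2, and 93.6 and 91.3 in circPRE8. Its highest values were thus in the libraries where S100A14 was lowest. S100A16 rose 1.18-fold in circPRE8 against circPRE2 (limma adjusted p = 0.000914), and its 1.09-fold rise in circPRE8 against parental sgNORAD (adjusted p = 0.0291) was lost without parental sgNORAD replicate 2 (adjusted p = 0.17), without circPRE8 replicate 1 (0.149) and without circPRE8 replicate 2 (0.0632).

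The 250 bases before the RefSeq start (GRCh38.p14) are shown for S100A14 and its neighbour S100A16, and for S100A4 and S100A10, highly expressed genes that rose in circPRE8 against parental sgNORAD and followed the same order of groups, so that the promoters can be set side by side. Capitals mark TATAA, the TATA box core, or CACCTG, an E-box, on either strand (CAGGTG is CACCTG read on the other strand). The RefSeq start of S100A14 lies inside the longer GENCODE span given above. The windows are chr1:153616326-153616575 for S100A14, chr1:153613138-153613387 for the upstream start of S100A16, chr1:153545807-153546056 for S100A4 and chr1:151993860-151994109 for S100A10, all on the minus strand and written 5′ to 3′.
S100A14: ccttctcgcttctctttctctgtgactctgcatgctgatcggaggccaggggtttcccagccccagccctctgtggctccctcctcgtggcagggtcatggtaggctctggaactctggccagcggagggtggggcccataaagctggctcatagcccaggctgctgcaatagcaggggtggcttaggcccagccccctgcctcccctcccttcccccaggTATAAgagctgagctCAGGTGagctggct
S100A16: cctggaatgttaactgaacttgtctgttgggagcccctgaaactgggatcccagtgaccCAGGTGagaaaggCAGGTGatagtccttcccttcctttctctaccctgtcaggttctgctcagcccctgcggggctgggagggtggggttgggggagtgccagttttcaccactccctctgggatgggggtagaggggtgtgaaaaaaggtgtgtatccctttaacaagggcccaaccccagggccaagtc
S100A4: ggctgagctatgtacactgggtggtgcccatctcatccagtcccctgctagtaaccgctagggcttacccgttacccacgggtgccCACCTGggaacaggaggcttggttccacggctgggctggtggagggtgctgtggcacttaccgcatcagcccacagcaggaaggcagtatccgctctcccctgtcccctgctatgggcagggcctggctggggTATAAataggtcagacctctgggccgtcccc
S100A10: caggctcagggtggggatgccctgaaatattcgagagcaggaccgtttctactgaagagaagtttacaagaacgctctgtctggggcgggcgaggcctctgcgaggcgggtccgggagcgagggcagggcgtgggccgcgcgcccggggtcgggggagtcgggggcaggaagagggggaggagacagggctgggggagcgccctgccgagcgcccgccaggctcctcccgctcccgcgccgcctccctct

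In these windows S100A14 and S100A4 each held both motifs: TATAA began 29 bases before the start in S100A14 and 31 before it in S100A4. S100A16 held CACCTG only, in 2 places, and S100A10 held neither letter string and was 71.2% G and C, against 63.2% for S100A14. Over all 14 RefSeq starts of the 10 genes, TATAA was found at 5 and CACCTG at 5, against 18.9% and 17.5% of 35116 promoters of the same length. AACCNGTT, the motif of grainyhead factors, was found at 0 of the 14 and in 1.49% of all. TTATAA, in which both strands read TATAA, stood at 1 start of S100A13 and in S100P, and no other motifs overlapped. The PUMILIO motif TGTANATA was in none of the longest annotated 3′ UTRs of the 10 genes, which run from 96 to 648 bases, and in 6.62% of the 5924 genes whose longest 3′ UTR falls in that range.

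Among all 11585 genes tested, the 5 whose pattern over the 8 libraries was nearest to that of S100A14 were EREG, AREG, GRHL2, PROM2 and SVIL. The measure was the root mean square difference of log2(RPKM + 0.1) after each gene was centred on its own mean, and it was 0.107, 0.189, 0.193, 0.251 and 0.281 in that order. EREG and AREG encode epiregulin and amphiregulin, ligands of the EGF receptor, GRHL2 is an epithelial grainyhead transcription factor, PROM2 a prominin of membrane protrusions and SVIL an actin-binding protein. EREG was at 162 and 161 RPKM in parental sgControl, 157 and 155 in parental sgNORAD, 104 and 104 in circPRE2 and 49.3 and 42.1 in circPRE8. GRHL2 was at 3.21 and 3.4, then 4.2 and 3.92, then 3.09 and 2.69, then 0.861 and 0.877 RPKM in the same order. All 5 had their lowest libraries in circPRE8, and no test was made, as they were chosen for this. Among the other 8 S100 genes tested, the smallest difference from S100A14 was 0.853, for S100A13. Its log2 level ranged over 0.3 across the libraries, against 2.08 for S100A14, so this is no likeness of pattern.

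**Figure D2:**
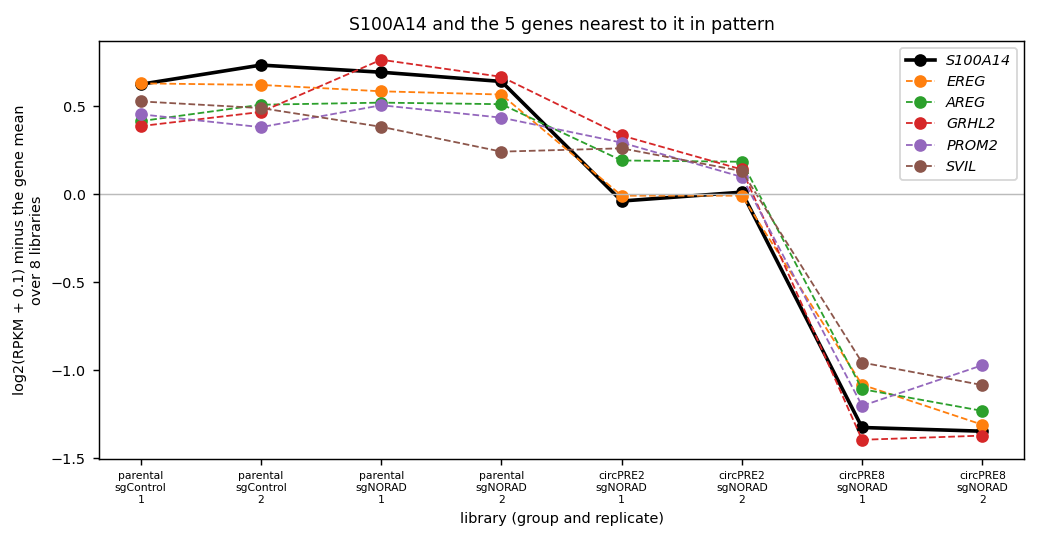
log2(RPKM + 0.1) minus each gene's mean over the 8 libraries (vertical axis) by library (horizontal axis) for S100A14 (solid black) and the 5 genes nearest to it (dashed). All 6 lines are lowest in the 2 circPRE8 libraries, and EREG follows S100A14 most closely (root mean square difference 0.107).

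With the NORAD guide in the parental line (parental sgNORAD against parental sgControl), S100A4 and S100A10 fell by about the same factor and S100A2 rose. Of the 8 tested genes other than S100A14, 1 rose (S100A2), 3 fell (S100A4, S100A10 and S100A13) and 4 did not pass, against 20.9% risen and 16.4% fallen of all genes tested. Their median log2 change was -0.09, against 0.022 over all genes. Without parental sgControl replicate 1 the S100A2 call was lost and 0 rose, and without parental sgControl replicate 2 S100A6 passed as well (adjusted p = 0.022) and 2 rose.

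S100A10 (ENSG00000197747.9, chr1:151982915-151994390) encodes the annexin A2 partner, sometimes called p11. It was at 202 and 216 RPKM in parental sgControl, 142 and 133 in parental sgNORAD, 171 and 179 in circPRE2, and 242 and 243 in circPRE8. No groups overlapped, and the order from low to high was parental sgNORAD, circPRE2, parental sgControl, circPRE8. It fell to 0.661 with the NORAD guide in the parental line (log2 -0.6, 95% interval -0.7 to -0.5, limma adjusted p = 3.09e-06).

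S100A4 (ENSG00000196154.12, chr1:153543613-153550136), also known as metastasin, binds non-muscle myosin. It was at 215 and 220 RPKM in parental sgControl, 143 and 146 in parental sgNORAD, 189 and 174 in circPRE2, and 311 and 328 in circPRE8. The groups followed the same order as for S100A10, again with no overlap, although S100A10 lies with S100A11 on the far side of a 1486.7 kb gap between S100A11 and S100A6. S100A4 fell to 0.665 with the NORAD guide in the parental line (log2 -0.59, 95% interval -0.69 to -0.49, limma adjusted p = 3.22e-06).

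When circPRE2 was set against parental sgNORAD, 3 of the 8 genes rose (S100A4, S100A10 and S100A13), 0 fell and 5 did not pass by limma, and at an unadjusted p under 0.05 there were 3 rises and 1 fall. Over all genes tested 10.9% rose and 7.91% fell, and the share of calls that were rises was 57.8%, or 45.6% with RLE size factors. The median log2 change of the 8 was 0.107, against 0.006 over all genes. S100A10 rose 1.27-fold (95% interval of the log2 change 0.25 to 0.45, adjusted p = 0.000543) and S100A4 rose 1.26-fold (0.23 to 0.43, adjusted p = 0.000724). With RLE size factors (adjusted p = 0.0398), and without parental sgNORAD replicate 2 (0.0399), S100A16 passed as 1 fall. Parental sgNORAD is the group set above against the control guide, so the falls there and the rises here rest in part on the same 2 libraries.

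In circPRE8 against parental sgNORAD, 6 of the 8 genes rose (S100A3, S100A4, S100A10, S100A11, S100A13 and S100A16), 0 fell by limma, also at an unadjusted p under 0.05, and S100A2 and S100A6 did not pass. Over all genes 23.6% rose and 28.6% fell, and rises made up 45.2% of the calls, or 50.9% with RLE and 52.6% with upper quartile factors. The median log2 change of the 8 was 0.195, against -0.02 over all genes. S100A4 went from 145 ± 1.91 to 320 ± 11.8 RPKM (SD, n = 2), a 2.21-fold rise (95% interval of the log2 change 1.05 to 1.24, adjusted p = 8.71e-09). S100A10 went from 138 ± 6.47 to 243 ± 0.801 RPKM, a 1.76-fold rise (0.72 to 0.91, adjusted p = 1.06e-07). S100A14, untested here, was at 13.6 against 54.9 RPKM, and the other 9 genes had a higher mean in circPRE8.

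Set directly against circPRE2, circPRE8 had 5 rises (S100A3, S100A4, S100A10, S100A11 and S100A16), 1 fall (S100A13) and 2 genes that did not pass. Over all genes 18% rose and 25.7% fell, and rises made up 41.2% of the calls, or 54.6% with RLE and 52.1% with upper quartile factors. The median log2 change of the 8 was 0.258, against -0.037 over all genes. S100A4 rose 1.76-fold (95% interval of the log2 change 0.72 to 0.91, limma adjusted p = 1.82e-07) and S100A10 rose 1.38-fold (0.37 to 0.57, adjusted p = 1.3e-05). The S100A13 fall did not hold with any circPRE2 or circPRE8 library left out (adjusted p between 0.0897 and 0.219), nor with RLE (0.15) or upper quartile factors (0.116), which leaves 0 falls.

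The comparison of circPRE2 with parental sgControl gave 2 rises among the 8 genes (S100A2 and S100A6), 3 falls (S100A4, S100A10 and S100A11) and 3 genes that did not pass. Over all genes 25.2% rose and 17.8% fell, and rises made up 58.6% of the calls, or 44.3% with RLE and 47.8% with upper quartile factors. The median log2 change of the 8 was -0.009, against 0.033 over all genes. S100A4 stood at 0.836 and S100A10 at 0.84 of the control level (limma adjusted p = 0.00084 and 0.00105). Their calls held under every alternative tried in these 5 comparisons, with a highest adjusted p of 0.0139.

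**Figure D3:**
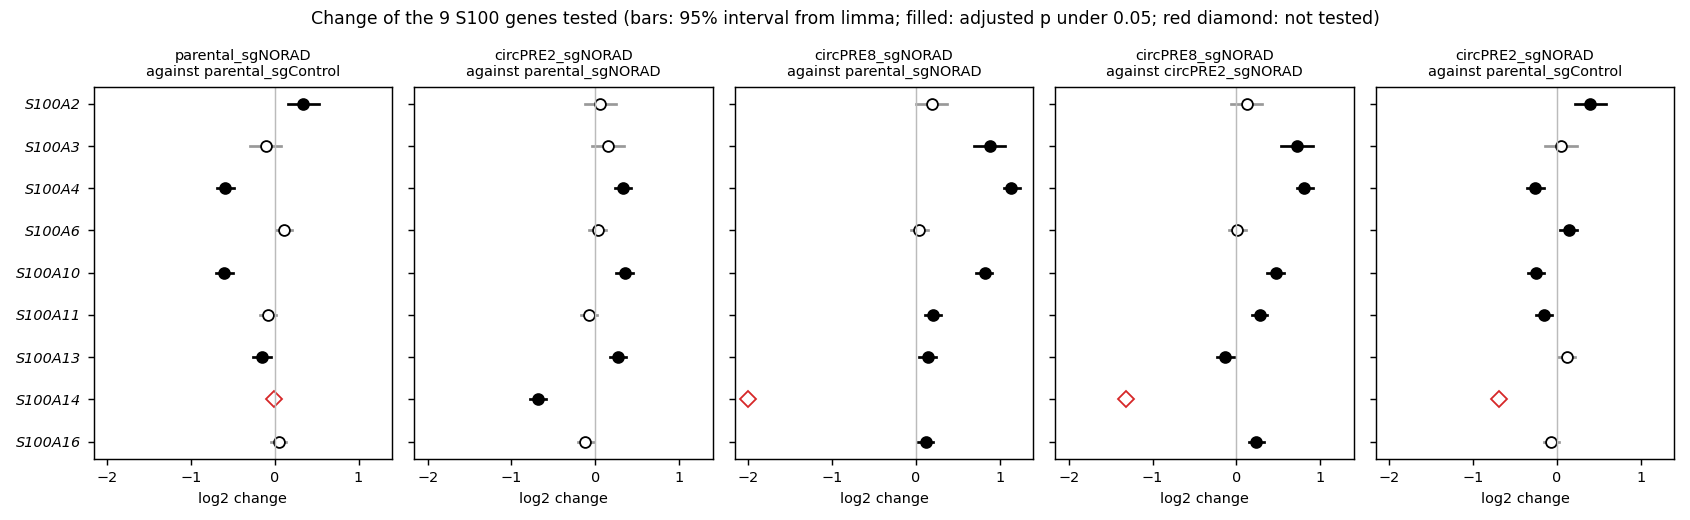
log2 change (horizontal axis) of the 9 S100 genes tested (vertical axis) in 5 comparisons, with 95% intervals from limma; filled circles passed at an adjusted p under 0.05, open circles did not, and red diamonds are S100A14 values given without a test. S100A4 and S100A10 lie left of 0 in the first panel (-0.59 and -0.6) and right of 0 in the next 3, where S100A14 lies left of 0.

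In circPRE8 against parental sgControl, described without a test, S100A3 was 1.71-fold, S100A4 1.47-fold, S100A2 1.44-fold, S100A10 1.16-fold, S100A16 1.12-fold, S100A6 1.11-fold and S100A11 1.09-fold as high, and S100A13 was at 0.991 of control.

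S100A4 is also used as a marker of fibroblasts, so the fibroblast markers are given beside it. The summed level of 8 such markers was 4.13 to 4.29 RPKM in parental sgControl, 4.87 to 4.98 in parental sgNORAD, 6.1 to 6.54 in circPRE2 and 8.84 to 13.3 in circPRE8. None of the 8 was at 0 in every library, and 3 of them were tested. In circPRE8 against parental sgNORAD COL3A1 and SPARC rose while 0 fell, where 23.6% of all genes rose and 28.6% fell. COL1A1, also tested, did not pass, with a mean of 3.4 RPKM in parental sgNORAD and 3.26 in circPRE8. COL3A1 was near the filter, at 0.522 and 0.427 RPKM in parental sgNORAD and 0.681 and 1.33 in circPRE8. SPARC, a matrix protein, made up 4.92 and 7.1 RPKM of the circPRE8 sums, DCN did not exceed 0.0712 RPKM and LUM 0.152 RPKM, the highest of each being in circPRE8 replicate 2. Without that library the S100A4 log2 change against parental sgNORAD was 1.11, against 1.14 with it. The circPRE8 library kept, replicate 1, also had SPARC at 4.92 RPKM, against 0.637 and 0.735 in parental sgNORAD. Leaving out replicate 2 therefore cannot separate S100A4 from these markers. The part of other cell types in the result was not tested, and in bulk RNA fewer cells of a type and less RNA per cell cannot be told apart.

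The blood markers summed to 0.661 to 0.861 RPKM in the parental groups and 1.06 to 1.19 in the circPRE2 and circPRE8 lines. Those of embryonic kidney and neural lines summed to 2.82 to 2.88 RPKM in the parental groups, 3.6 to 3.77 in circPRE2 and 4.13 to 4.35 in circPRE8. No marker of either list was at 0 in every library.

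Among the epithelial markers, circPRE8 against parental sgNORAD gave 3 rises and 4 falls of 8 tested, where 23.6% of all genes rose and 28.6% fell. CDH1 (E-cadherin) fell to 0.548, CLDN3 (a tight junction claudin) to 0.646 and EPCAM to 0.654 (limma adjusted p = 3.9e-07, 0.00021 and 1.53e-07), while the keratins KRT19, KRT8 and KRT18 rose 1.4-fold, 1.32-fold and 1.28-fold. S100A14 was lowest in the same libraries in which CDH1, CLDN4 and EPCAM were lowest, and in which KRT8, KRT18 and KRT19 were highest. CLDN3, at 5.89 and 6.53 RPKM in circPRE8, overlapped parental sgControl (5.07 and 6.51 RPKM).

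S100A3 (ENSG00000188015.10, chr1:153547329-153549372), known from the hair cuticle, lies within the span of S100A4 on the same strand. It was at 3.1 and 3.31 RPKM in parental sgControl, 2.93 and 3.02 in parental sgNORAD, 3.21 and 3.43 in circPRE2, and 5.01 and 6.13 in circPRE8. The circPRE8 libraries stood above all others, while parental sgControl and circPRE2 overlapped. It rose 1.83-fold in circPRE8 against parental sgNORAD (limma adjusted p = 8.15e-06) and 1.65-fold against circPRE2 (adjusted p = 6.49e-05). The 2 genes share 0 exonic bases in GENCODE release 29, but S100A3 stood at 1.44% to 2.07% of the S100A4 level in every library, and whether reads of the S100A4 transcript were counted for S100A3 was not tested.

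S100A11 (ENSG00000163191.6, chr1:152032506-152047907), a partner of annexin A1, was at 157 and 167 RPKM in parental sgControl, 159 and 149 in parental sgNORAD, 143 and 149 in circPRE2, and 176 and 178 in circPRE8. Both circPRE8 libraries lay above the other 6. It rose 1.15-fold in circPRE8 against parental sgNORAD (limma adjusted p = 0.00213) and 1.21-fold against circPRE2 (adjusted p = 4e-04), and its fall to 0.899 in circPRE2 against parental sgControl (adjusted p = 0.0139) was lost without parental sgControl replicate 2 (0.114) or circPRE2 replicate 1 (0.11).

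S100A6 (ENSG00000197956.10, chr1:153534599-153536244) was at 502 and 539 RPKM in parental sgControl, 558 and 565 in parental sgNORAD, 560 and 586 in circPRE2, and 578 and 578 in circPRE8. Its 3 groups with the NORAD guide lay between 558 and 586 RPKM by library, above both control libraries. The 95% intervals of its log2 change in circPRE2 and circPRE8 against parental sgNORAD were -0.07 to 0.13 and -0.06 to 0.14. It passed in circPRE2 against parental sgControl (1.1-fold, limma adjusted p = 0.0257), but not with RLE size factors (0.146), nor without parental sgControl replicate 1 (0.15), circPRE2 replicate 2 (0.165), circPRE8 replicate 1 (0.0529) or circPRE8 replicate 2 (0.0524).

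S100A2 (ENSG00000196754.10, chr1:153561108-153567890), a p53-binding member of squamous epithelia, was at 2.74 and 3.02 RPKM in parental sgControl, 3.64 and 3.7 in parental sgNORAD, 3.73 and 3.95 in circPRE2, and 4.6 and 3.82 in circPRE8. The control libraries were the lowest, and the circPRE8 libraries, on either side of a circPRE2 library, spread most. It rose 1.27-fold with the NORAD guide in the parental line (limma adjusted p = 0.00814, but 0.0673 without parental sgControl replicate 1) and 1.32-fold in circPRE2 against parental sgControl (adjusted p = 0.00269). Against parental sgNORAD, circPRE8 did not pass for this gene (adjusted p = 0.0815), but did without circPRE8 replicate 2 (0.0128). Against circPRE2 it did not pass either (0.248), but did without circPRE8 replicate 2 (0.0402).

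S100A13 (ENSG00000189171.14, chr1:153618787-153631360), which takes part in the release of FGF1, was at 8.35 and 7.89 RPKM in parental sgControl, 7.23 and 7.37 in parental sgNORAD, 8.94 and 8.7 in circPRE2, and 7.97 and 8.12 in circPRE8. It was highest in circPRE2 and lowest in parental sgNORAD. It rose 1.21-fold in circPRE2 against parental sgNORAD (limma adjusted p = 0.00326). Its fall to 0.9 with the NORAD guide in the parental line (adjusted p = 0.0253) was lost without parental sgControl replicate 1 (0.178) or parental sgNORAD replicate 1 (0.0815). Its 1.1-fold rise in circPRE8 against parental sgNORAD (adjusted p = 0.0274) was lost without parental sgNORAD replicate 1 (0.089), circPRE8 replicate 1 (0.0644) or circPRE8 replicate 2 (0.121). S100A13 shares 235 exonic bases with S100A1, on the other strand, and as the use of strand in counting is not stated, its level is uncertain to that extent.

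S100P (ENSG00000163993.7, chr4:6693069-6697170) is the only 1 of the 10 outside chromosome 1. At the shortest length that made its values whole (468 bases), they corresponded to 5 and 3 reads in parental sgControl, 0 and 2 in parental sgNORAD, 5 and 3 in circPRE2, and 7 and 6 in circPRE8. These are the lowest read numbers that fit, and a longer length would give more. The parental sgNORAD libraries were lowest and the circPRE8 libraries highest, while parental sgControl and circPRE2 had the same numbers. As it did not reach 0.5 RPKM in any library the gene was not tested, and no fold is given.

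Of the other 11 S100 genes, 10 stayed below the filter. S100A8, S100A12, S100A7A and S100A7L2 were listed at 0 in every library, S100A9, S100A7, S100B, S100G and S100Z did not exceed 0.0782 RPKM, and S100A1 was at 0.259 to 0.462 RPKM. S100A5, which lies between S100A6 and S100A4, was the 1 tested, at a level near those of S100A2 and S100A3. It was at 3.12 and 3.27 RPKM in parental sgControl, 2.7 and 3.21 in parental sgNORAD, 2.81 and 2.28 in circPRE2, and 3.14 and 4.12 in circPRE8, and rose 1.4-fold in circPRE8 against circPRE2 (limma adjusted p = 0.00901).

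Annexins are membrane-binding proteins, several of which are bound by S100 dimers, and most of those tested fell in parental sgNORAD and were higher in circPRE8 than there. This fall and this rise rest in part on the same 2 parental sgNORAD libraries. With the NORAD guide in the parental line, 1 of 10 tested annexin genes rose (ANXA4) and 6 fell (ANXA1, ANXA2, ANXA3, ANXA5, ANXA6 and ANXA7), with a median log2 change of -0.187 against 0.022 over all genes. In circPRE8 against parental sgNORAD 8 rose, with ANXA10, and 0 fell, also at an unadjusted p under 0.05, with a median of 0.407 against -0.02. In circPRE8 against circPRE2 6 rose and 1 fell, with a median of 0.207 against -0.037, and the 1 fall was that of ANXA10. This gene exceeded 0.5 RPKM in the 2 circPRE2 libraries only, so it entered the test through the group where it is high, and it was not tested when either of these was left out. Between circPRE2 and parental sgNORAD 4 rose, ANXA10 among them, and 1 fell, with a median of 0.035 against 0.006; with at least 1 RPKM asked for in at least 4 libraries, which leaves ANXA10 out, 3 rose and 2 fell. The falls went from 0 to 2 when single libraries were left out (0 without parental sgNORAD replicate 1 or circPRE2 replicate 1, 2 without parental sgNORAD replicate 2 or either parental sgControl library). Between circPRE2 and parental sgControl 3 rose, ANXA10 again among them, and 3 fell, with a median of -0.016 against 0.033. Over all genes tested, in the order of comparisons given here, 20.9%, 23.6%, 18%, 10.9% and 25.2% rose. In that order 16.4%, 28.6%, 25.7%, 7.91% and 17.8% fell.

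ANXA2, the partner of S100A10, was at 182 and 189 RPKM in parental sgControl, 158 and 152 in parental sgNORAD, 183 and 185 in circPRE2, and 233 and 235 in circPRE8. Parental sgNORAD was lowest and circPRE8 highest, as for S100A10, while circPRE2 overlapped parental sgControl. ANXA2 fell to 0.835 with the NORAD guide in the parental line (limma adjusted p = 0.00024), rose 1.19-fold in circPRE2 against parental sgNORAD (0.00108) and rose 1.51-fold in circPRE8 (2.33e-07). ANXA3, at 57 ± 1.03 RPKM in parental sgControl, fell to 0.649 in parental sgNORAD and stood at 33.3 ± 1.06 in circPRE2 and 57.9 ± 0.717 in circPRE8 (SD, n = 2). ANXA1, the partner of S100A11, fell to 0.818 in parental sgNORAD and was 1.35-fold higher in circPRE8 than there (adjusted p = 0.000143 and 2.68e-06). ANXA10 was 3.71-fold higher in circPRE2 than in parental sgNORAD, at 0.997 ± 0.0912 against 0.196 ± 0.03 RPKM (SD, n = 2), with the limit on its test given above.

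**Figure D4:**
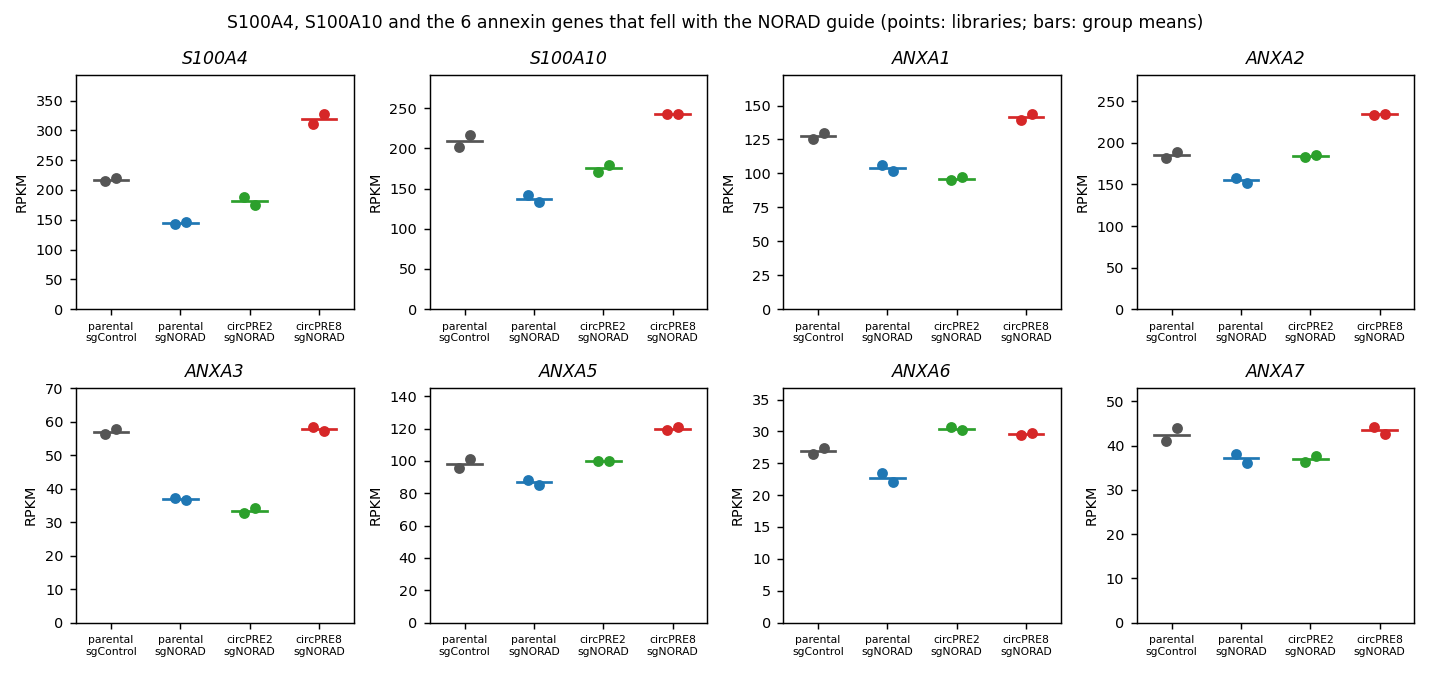
Level in RPKM (vertical axis, from 0) of S100A4, S100A10 and the 6 annexin genes that fell with the NORAD guide in the parental line, in the 4 groups (horizontal axis); points are libraries and bars group means (n = 2). All 8 were called fallen in parental sgNORAD against parental sgControl, which chose the 6 annexins, so their lower level there is no separate result. S100A10 and ANXA2 are highest in circPRE8 (243 and 234 RPKM).

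Of 15 binding partners and receptors of S100 proteins, 12 were tested. In circPRE8 against parental sgNORAD 5 rose and 2 fell, where 23.6% and 28.6% of all genes did, and the median log2 change was 0.047 against -0.02 over all genes. BSG (basigin, a receptor for S100A9) went from 152 ± 4.77 to 224 ± 1.26 RPKM (SD, n = 2), a 1.48-fold rise (limma adjusted p = 5.1e-07), PLAT (the tissue plasminogen activator, which S100A10 binds) rose 1.19-fold and EZR (ezrin, a partner of S100P) 1.15-fold, with CACYBP and S100PBP the others. AHNAK, a large scaffold that S100A10 and annexin A2 hold at the membrane, fell to 0.61 (adjusted p = 0.000576) and HLTF to 0.87. The rises went to 3 without circPRE8 replicate 1 and 3 without circPRE8 replicate 2. With the NORAD guide in the parental line, EZR fell to 0.837, PLAT to 0.845, CACYBP to 0.883 and BSG to 0.886, 4 falls in all, while AHNAK and SUGT1 were the 2 rises, against 16.4% fallen and 20.9% risen of all genes and with a median of -0.11 against 0.022. Those falls went to 2 without parental sgControl replicate 2, and the rises to 0 without parental sgControl replicate 2, parental sgNORAD replicate 1, circPRE8 replicate 1 or circPRE8 replicate 2, and to 1 without any other library except parental sgNORAD replicate 2; with RLE or upper quartile factors there were 0 rises. The partners gave 2 rises and 0 falls in circPRE2 against parental sgNORAD (BSG and PLAT), 4 and 3 in circPRE8 against circPRE2, and 1 and 3 in circPRE2 against parental sgControl. Their medians were 0.021, -0.041 and -0.002, against 0.006, -0.037 and 0.033 over all genes, of which 10.9%, 18% and 25.2% rose and 7.91%, 25.7% and 17.8% fell. Leaving out either circPRE2 library took the first of these to 1 rise, and leaving out any parental sgControl or circPRE2 library took the last to 0 rises and 2 falls. AGER, the receptor for advanced glycation end products, was between 2.36 and 3.29 RPKM and passed in no comparison, and TLR4 did not exceed 0.00449 RPKM.

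Other EF-hand proteins, which bind calcium with the same kind of loop, numbered 21 tested. With the NORAD guide in the parental line 1 rose and 12 fell, where 20.9% and 16.4% of all genes did. The median log2 change was -0.123 against 0.022 over all genes. In circPRE8 against parental sgNORAD 14 rose and 1 fell, where 23.6% and 28.6% of all genes did. The median there was 0.176 against -0.02 over all genes. CAPS reached 0.5 RPKM in both libraries only in circPRE2 and circPRE8, so it entered the test through groups where it is high. With at least 1 RPKM asked for in at least 4 libraries, which leaves out CAPS, 13 rose and 1 fell in this comparison. The first comparison's 1 rise, SRI (sorcin), was lost without parental sgControl replicate 1 or parental sgNORAD replicate 1, and with RLE size factors. Between circPRE8 and circPRE2 there were 12 rises and 1 fall, where 18% of all genes rose and 25.7% fell. The median was 0.147 against -0.037. The fall, again SRI, was lost without replicate 2 of either group and with RLE or upper quartile factors. Set against parental sgControl, circPRE2 had 2 rises and 10 falls, where 25.2% of all genes rose and 17.8% fell. With the stricter filter that leaves out CAPS there were 1 rise and 10 falls. The median was -0.12 against 0.033, and 1 rise was left without parental sgControl replicate 2 or either circPRE2 library. In circPRE2 against parental sgNORAD there were 5 rises and 2 falls, where 10.9% of all genes rose and 7.91% fell. The median was 0.025 against 0.006. These counts were the least stable, with 2 rises and 1 fall without circPRE2 replicate 2, and 3 rises and 0 falls without circPRE2 replicate 1. There were 0 falls without parental sgNORAD replicate 1, and 3 rises when any parental sgControl or circPRE8 library was left out. CALU (calumenin) fell to 0.783 with the NORAD guide in the parental line and was 1.33-fold higher in circPRE8 than in parental sgNORAD. For the calmodulin gene CALM2 the same comparisons gave a fall to 0.841 and a 1.38-fold higher level (limma adjusted p = 2.99e-05, 3.95e-06, 0.000233 and 1.1e-06 in that order). In both comparisons the parental sgNORAD libraries are the ones set against the others.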

How the data were processed

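Poly(A) RNA was sequenced in 8 HCT116 libraries, 2 per group, with groups and replicate numbers from the titles. The authors deposited 1 table of RPKM values for 19411 genes, all 8 columns of which were used (0 left unused). STAR, featureCounts 1.6.0, edgeR 3.24.0 and hg38 are named in the submitters' processing notes; of annotation release, strand use and filters the sources used here say nothing. The series text on replicates and library kit does not match these libraries and was left aside.

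RPKM multiplied by the merged exon length of GENCODE release 29 came out in whole reads (within 0.05 read) for 75.0% to 76.2% of values under 200 reads, which gave the library sizes; reads of S100P used the shortest length that made its 8 values whole (468 bases). Beyond counting error, read numbers carry error from the length and library size used. S100A3, for example, did not come out whole at its GENCODE length (79.5 reads in parental sgNORAD replicate 1). Of the identifiers, 19379 matched GENCODE release 29, the source of coordinates.

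Values were tested as log2(RPKM + 0.1) for the 11585 genes that reached 0.5 RPKM in 2 or more libraries. The fit used limma 3.58.1 (R 4.3.3), an intensity trend, 1 coefficient per group over all 8 libraries, and Benjamini-Hochberg adjustment over all genes tested at 0.05. Fold changes are antilogs of these differences and understate changes of low genes. The model was also run on simulated data with independent noise in each library, which cannot speak to effects of line, batch or technical replication. The S100 genes and the gene lists were chosen with earlier results of these data known. Named from each list were the 3 largest changes past the threshold per comparison and binding partners at any value; others were named after their values were seen. Alternatives were pseudocounts of 0.01 and 1, no filter, at least 1 RPKM in at least 4 libraries, RLE and upper quartile factors, no trend, only the groups compared, the replicate number as a block, and each library left out.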

Additional observations from a re-analysis of the deposited data

How the results depend on the processing

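Each group has 2 libraries, so every call rests on 1 difference between replicates per group and on a spread shared over 4 groups; with a library left out, the lone sample is assumed to vary like the rest. The calls of S100A4 and S100A10 in the 5 comparisons, of S100A3 in circPRE8 against parental sgNORAD and circPRE2, and of S100A14 in circPRE2 against parental sgNORAD kept direction and side of the threshold under every alternative.

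Counts below are of the 8 S100 genes tested other than S100A14. In parental sgNORAD against parental sgControl, risen genes numbered 0 to 2 with a library left out (1 with all). In circPRE2 against parental sgNORAD, fallen genes numbered 0 to 1 with a library left out and 1 with RLE size factors (0 in the main analysis). For circPRE8 against parental sgNORAD, risen genes numbered 4 to 6 with a library left out and 5 to 7 under the other settings (6 in the main analysis). In circPRE8 against circPRE2, fallen genes numbered 0 to 1 with a library left out and 0 with no filter, RLE size factors, upper quartile factors or no intensity trend (1 in the main analysis). In circPRE2 against parental sgControl, risen genes numbered 1 to 2 with a library left out and 1 with no filter, RLE size factors, upper quartile factors, no intensity trend or only the groups compared (2 in the main analysis). The cause of these moves was not tested.

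With a library left out, the log2 change of S100A6 in circPRE2 against parental sgNORAD ran from 0 to 0.06 (0.03 with all), that of S100A2 in circPRE8 against circPRE2 from -0.01 to 0.26 (0.13), and that of S100A6 in circPRE8 against circPRE2 from -0.02 to 0.04 (0.01); none of these had passed. Over all genes, calls with a library left out ranged from 713 to 2359 in circPRE2 against parental sgNORAD (2173 with all), 3168 to 5484 in circPRE8 against circPRE2 (5056) and 3228 to 5406 in circPRE2 against parental sgControl (4976). The lowest count in each was without circPRE2 replicate 1; the first also went to 1210 without circPRE2 replicate 2 and 1439 without parental sgNORAD replicate 1.

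Replicate numbers are shared by the groups, but the labels do not tie them to a culture or day, and the correlation of replicate differences between groups ran from -0.09 to 0.21. With the replicate number as a block, the counts were 1 risen and 3 fallen, 3 and 0, 6 and 0, 5 and 1, and 2 and 3 in the 5 comparisons, the same as without the block.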

Other observations

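Genes that flank the S100 genes were examined as a list. Of 18 neighbours of the chromosome 1 cluster, 14 were tested. In circPRE8 against parental sgNORAD 2 rose and 2 fell, among them SNAPIN (a SNARE-associated protein) at 1.15-fold and THEM4 (an acyl-CoA thioesterase) at 0.884, with a median log2 change of -0.071 against -0.02 over all genes (limma with Benjamini-Hochberg adjustment). With the NORAD guide in the parental line, RAB13, a small GTPase of tight junctions, rose 1.36-fold (limma adjusted p = 0.000149) and TDRKH, a piRNA pathway protein, fell to 0.765 (0.00174), in a total of 2 rises and 1 fall. In circPRE2 against parental sgNORAD 0 rose and 0 fell by limma, and 0 rose and 1 fell at an unadjusted p under 0.05. In circPRE8 against circPRE2 1 rose (ILF2, a double-stranded RNA-binding complex subunit, at 1.14-fold) and 4 fell, the lowest being INTS3, an Integrator subunit, at 0.824, where 18% of all genes rose and 25.7% fell, with a median of -0.089 against -0.037. In circPRE2 against parental sgControl 3 rose and 2 fell, with a median of 0.041 against 0.033. Of 8 tested neighbours of S100P on chromosome 4, 0 rose and 1 fell with the NORAD guide in the parental line, which was PPP2R2C, a phosphatase subunit, at 0.853 (limma adjusted p = 0.00456). In the order circPRE2 and circPRE8 against parental sgNORAD, circPRE8 against circPRE2 and circPRE2 against parental sgControl, the rises and falls of these 8 were 1 and 0, 1 and 1, 0 and 0 (also 0 and 0 at an unadjusted p under 0.05), and 1 and 2. The shares of all genes that rose and fell were 20.9% and 16.4% with the NORAD guide in the parental line. They were 10.9% and 7.91% in circPRE2, and 23.6% and 28.6% in circPRE8, against parental sgNORAD. Between circPRE2 and parental sgControl they were 25.2% and 17.8%. Alternatives were not run for the neighbour lists.

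The fused-type S100 genes, which encode large skin proteins with an S100 domain, were not tested: TCHHL1 and CRNN were listed at 0 in every library, and FLG (filaggrin) and HRNR (hornerin) did not exceed 0.0446 and 0.0568 RPKM.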
